A study of Homo sapiens with 6 samples.

Results

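The genes described here are markers of the germinal-centre B cell and of Burkitt lymphoma, which arises from that cell. They are BCL6, MME, LMO2, MEF2B, MEF2C, GCSAM, SERPINA9, MYBL1 and TCL1A. A probe set, the unit of the array, was taken for a gene where the platform annotation assigned it to that gene alone. This gave 17 probe sets for 8 of the 9 genes, out of 19775 genes with a probe set of their own among 54613 tested probe sets. The single probe set that names MEF2B names 3 genes, so no value is given for MEF2B. The members were chosen by name, with earlier results of these data known.

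Germinal centres are sites in lymph nodes where activated B cells divide, mutate their antibody genes and are selected. BCL6 is the transcriptional repressor that holds this state, MEF2B and MEF2C are transcription factors of the myocyte enhancer family, of which MEF2B is an activator of BCL6, and LMO2 and GCSAM are used in pathology as germinal-centre stains. MME encodes the surface peptidase CD10, which marks both germinal-centre B cells and B cell precursors. TCL1A is a co-activator of the kinase AKT that is high in Burkitt lymphoma.

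The series holds 6 expression arrays of BL2, an established human Burkitt lymphoma line grown in complete RPMI medium. All cultures were electroporated, 3 with scrambled (scrb) siRNA and 3 with a pool of 4 siRNAs against LEF1, and no untransfected culture was used here. LEF1 is a transcription factor that carries Wnt signals to DNA together with beta-catenin. The labels give 3 batches with 1 scrambled siRNA and 1 LEF1 siRNA array in each, and the time between electroporation and harvest is not given in the sources used here. Levels are log2 expression as deposited, errors are SDs over 3 arrays unless named, and a difference is LEF1 siRNA minus scrambled siRNA on the log2 scale. Since only 1 line was studied, differences describe BL2.

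The knockdown and the cell type were checked first. LEF1 fell at its brightest probe set from 11.04 ± 0.43 to 8.32 ± 0.30 (n = 3 per group, limma adjusted p = 0.0213 without block and 7.46e-11 with batch as block). In the fit without block this probe set no longer passed once scrambled siRNA replicate 1 or 3, or LEF1 siRNA replicate 1 or 2, was left out (limma adjusted p = 0.106, 0.0771, 0.101 and 0.241). At 210948_s_at LEF1 fell by 1.84, which left 28.0% of the signal (limma adjusted p = 0.00418 without block). Of the single arrays, only leaving out LEF1 siRNA replicate 2 lost that call (limma adjusted p = 0.0639). At 221557_s_at LEF1 fell by 0.29, which left 81.5% (limma adjusted p = 0.284 without block, 0.00695 with batch as block). The B cell genes MS4A1, CD79A and PAX5 read 13.55, 12.04 and 11.45 with scrambled siRNA, where the median of all probe sets was 6.91. Over all 6 arrays, 8 of 9 measured B cell markers had a mean above the median of all probe sets, and CR2, the exception, read 6.53 with scrambled siRNA. The same held for 3 of 9 T and NK cell, 1 of 6 myeloid, 2 of 5 epithelial and 4 of 5 fibroblast and endothelial markers. None of these markers passed without block in limma, where 1 B cell and 1 endothelial marker had an unadjusted p below 0.05. With batch as block the B cell marker CD37 rose by 0.32 (limma adjusted p = 0.00529), and so did PECAM1, listed as endothelial, by 0.32 (limma adjusted p = 0.00584), a call lost with poly-A spike-in scaling (0.0502), which sets the arrays level on the RNA controls added to each sample. The mean of the 5 fibroblast and endothelial markers ran from 7.18 to 7.30 with scrambled siRNA and from 7.25 to 7.34 with LEF1 siRNA, higher in each of the 3 batches with overlapping groups. The part of these markers in the results was not tested. Array medians ran from 6.89 to 6.96.

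With batch as block, MEF2C, MME and TCL1A fell at every one of their probe sets, LMO2 rose at 1 of its 2, and BCL6 fell at 1 of its 3. No probe set of GCSAM, SERPINA9 or MYBL1 passed. In all, 8 of the 17 probe sets fell and 1 rose (limma with batch as block, adjusted p below the threshold of 0.05), against 1.51% lower and 4.58% higher among all probe sets. The shares over all probe sets include dim ones, whereas 15 of the 17 had a mean above the median of all probe sets. With dim probe sets left out, 3465 probe sets were called with batch as block, against 3328 with them. The sizes of the called differences ran from 0.23 to 0.55, and none of the other 8 probe sets exceeded 0.13. In the fit without block, which was planned as the main one, 0 of 17 passed in limma, against 0.0183% of all probe sets. There 6 of 17 had an unadjusted p below 0.05, against 7.84% of all. The median difference of the 17 was -0.13, and that of all probe sets was 0.01. Probe sets of 1 gene read the same gene and are not independent counts, and a level is not compared between genes because probe sets differ in response.

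**Figure D1:**
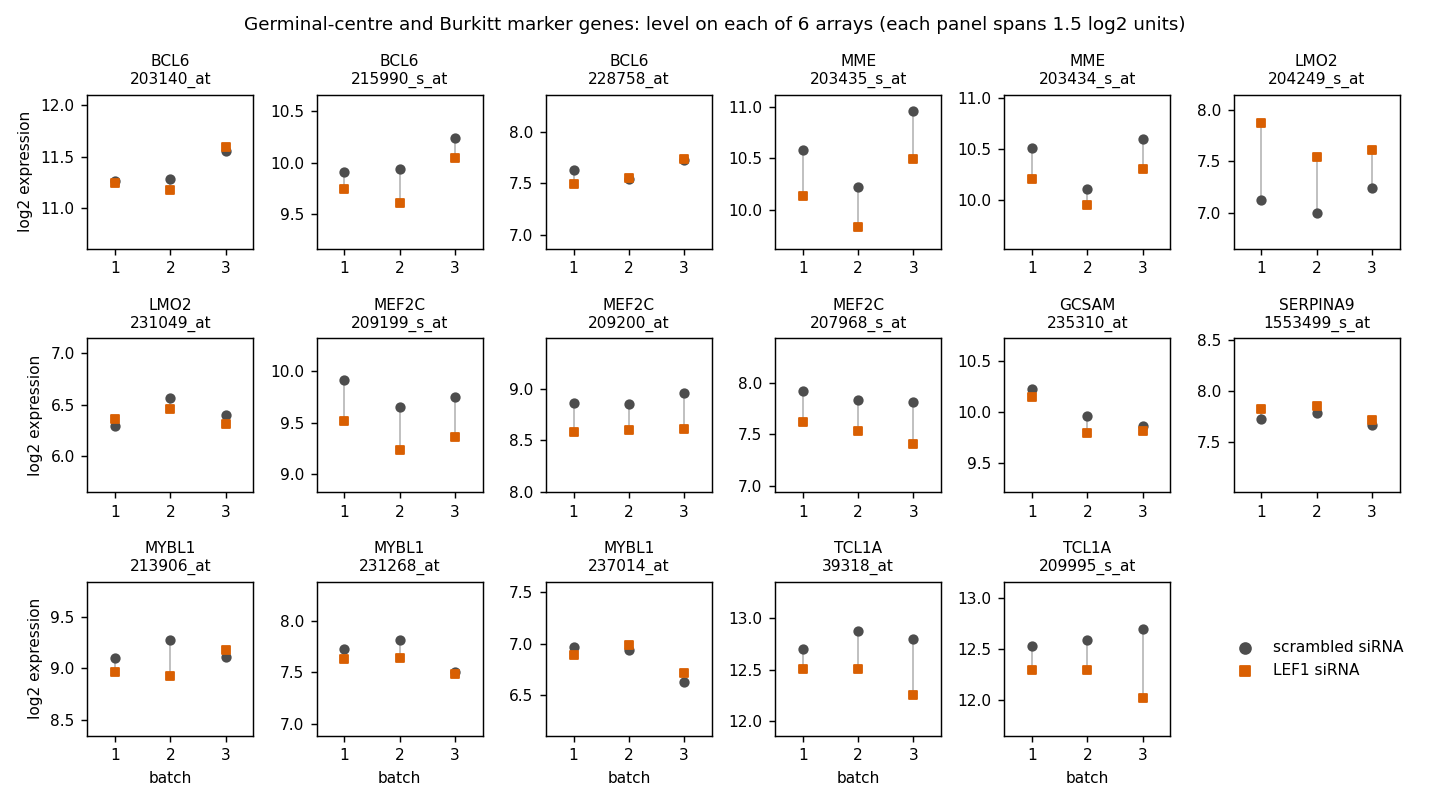
Log2 expression of each of the 17 probe sets (y axis, panels of equal span) in batches 1, 2 and 3 (x axis), with scrambled siRNA as grey circles, LEF1 siRNA as orange squares and a line joining the 2 arrays of a batch. In the MEF2C, MME and TCL1A panels the orange square lies below the grey circle in every batch, and in the LMO2 204249_s_at panel it lies above.

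BCL6, the repressor that defines the germinal-centre programme, read much the same in both groups at 2 of its 3 probe sets. At the brightest, 203140_at, the scrambled siRNA arrays of batches 1, 2 and 3 read 11.27, 11.29 and 11.56 and the LEF1 siRNA arrays 11.24, 11.18 and 11.60. The groups overlapped, and batch 3 was the highest in both. The difference was -0.03, with a 95% interval from -0.16 to 0.09 with batch as block (limma adjusted p = 0.869). The dimmest probe set, 228758_at, read 7.63, 7.54 and 7.73 against 7.49, 7.55 and 7.74, a difference of -0.04 (limma adjusted p = 0.832 with batch as block).

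The middle BCL6 probe set, 215990_s_at, read lower in all 3 batches. Its scrambled siRNA arrays read 9.91, 9.93 and 10.24 and its LEF1 siRNA arrays 9.74, 9.61 and 10.05. The groups overlapped, because batch 3 was higher than the others in both. The fall of 0.23 passed with batch as block (limma adjusted p = 0.0342) and not without (0.780). It did not pass once batch 2 was left out (limma adjusted p = 0.269, difference -0.18) or with a trended, robust variance prior (0.0637). The 3 probe sets of BCL6 thus differed in call, and the 2 that did not pass included the brightest.

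BCL6 is known to bind and repress its own gene, and the letters TTCCTAGAA, a form of its binding motif, were searched on both strands in the windows of 250 bases before to 50 after each start in the RefSeq promoter table (GRCh38.p14). This motif lay in 131 of 35116 such windows, 0.373%. No start of LMO2 or MYBL1 was searched. Of the 17 starts of the 7 members searched, 1 held the motif, at BCL6, 36 bases after the start. The stretch around it, chr3:187745419-187745448 on the minus strand, is printed 5′ to 3′. The match, in capitals, lies on the opposite strand and so reads as the reverse complement of TTCCTAGAA:

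BCL6 start region: tggtgatgcaagaagtTTCTAGGAAaggcc

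A letter match is a description and says nothing of binding in BL2. The arrays measured the transcript and not the BCL6 protein.

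MEF2C, a MADS-box transcription factor that B cells need for proliferation after antigen receptor signals, fell at all 3 of its probe sets. The brightest, 209199_s_at, read 9.92, 9.66 and 9.75 with scrambled siRNA in batches 1, 2 and 3, and 9.52, 9.23 and 9.36 with LEF1 siRNA. Every LEF1 siRNA array lay below every scrambled siRNA array. The within-batch differences of -0.40, -0.42 and -0.39 were almost equal, and the level went from 9.78 ± 0.13 to 9.37 ± 0.14, which left 75.5% of the signal (limma adjusted p = 0.000813 with batch as block, 0.225 without).

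The other MEF2C probe sets gave the same direction. At 209200_at the scrambled siRNA arrays read 8.86, 8.85 and 8.96 and the LEF1 siRNA arrays 8.58, 8.60 and 8.61, a fall of 0.29 (limma adjusted p = 0.00663 with batch as block). At 207968_s_at they read 7.92, 7.84 and 7.81 against 7.62, 7.53 and 7.40, a fall of 0.34 (limma adjusted p = 0.00302). The groups did not overlap at either. Neither of these 2 passed in the fit without block (limma adjusted p = 0.169 and 0.193).

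MME fell at both of its probe sets, and its level also moved between batches. At 203435_s_at the scrambled siRNA arrays read 10.58, 10.22 and 10.96 and the LEF1 siRNA arrays 10.13, 9.83 and 10.50. The groups overlapped, since batch 2 was low and batch 3 high in both, but within batches the differences were -0.44, -0.39 and -0.46. The fall of 0.43 left 74.2% of the signal (limma adjusted p = 0.000605 with batch as block, 0.700 without), and its 95% interval went from -0.91 to 0.05 without block and from -0.55 to -0.31 with it. At 203434_s_at the arrays read 10.51, 10.11 and 10.59 against 10.21, 9.96 and 10.30, a fall of 0.25 (limma adjusted p = 0.0204 with batch as block). That second call was lost when batch 1 or batch 3 was left out (limma adjusted p = 0.0749 and 0.0510, with differences of -0.22 and -0.23).

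Since CD10 is also a surface marker of B cell precursors, 8 precursor markers were read beside it. Of these 4 fell and 0 rose with batch as block, namely IGLL1, DNTT, RAG2 and IL7R, by 1.19, 0.62, 0.43 and 0.34, against 1.70% lower and 6.73% higher among all genes. These 4 falls were known from earlier results of these data, and 0 of the 8 passed without block in limma, where 4 had an unadjusted p below 0.05. The mean level of the 8 ranged from 8.001 to 8.192 on the scrambled siRNA arrays and from 7.75 to 7.81 on the LEF1 siRNA arrays. RAG1, VPREB1 and CD34 read 6.52, 6.73 and 7.06 with scrambled siRNA, near the median of all probe sets. In these bulk samples of a single line, fewer cells with a transcript and less of it per cell cannot be told apart. The part of these markers in the MME result was not tested.

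TCL1A fell at both probe sets, most in batch 3. At 39318_at the scrambled siRNA arrays read 12.70, 12.88 and 12.80 and the LEF1 siRNA arrays 12.51, 12.50 and 12.25. At 209995_s_at they read 12.53, 12.59 and 12.69 against 12.30, 12.30 and 12.02. The groups did not overlap at either probe set. The within-batch differences at 209995_s_at were -0.24, -0.30 and -0.67, and those at 39318_at -0.19, -0.37 and -0.55. The mean falls of 0.40 and 0.37 left 75.7% and 77.3% of the signal (limma adjusted p = 0.00578 and 0.00503 with batch as block, 0.207 and 0.233 without). Without batch 3 both still passed, with differences of -0.27 and -0.28 (limma adjusted p = 0.0147 and 0.00920).

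TCL1A has 1 start in the RefSeq promoter table (GRCh38.p14), and the 250 bases before it, chr14:95714126-95714375 on the minus strand, are printed 5′ to 3′ because this gene fell with LEF1 siRNA. The capitals mark TATAAA, searched on the sense strand, which began 27 bases before the start and lay in 7.33% of all windows:

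TCL1A upstream region: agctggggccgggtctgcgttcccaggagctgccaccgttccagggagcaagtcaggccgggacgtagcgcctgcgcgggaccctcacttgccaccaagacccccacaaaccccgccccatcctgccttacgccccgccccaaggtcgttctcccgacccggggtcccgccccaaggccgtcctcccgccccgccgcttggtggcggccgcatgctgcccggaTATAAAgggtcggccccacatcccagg

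Forms of the motif that TCF and LEF factors bind were searched on both strands of the same windows. CTTTGAT lay in 2.62% of all windows, CTTTGAA in 4.43%, CTTTGTT in 5.20% and CTTTGTA in 2.77%, and at least 1 of them lay in 13.8%. None lay in the 17 member windows, that is in 0 of the 17 member windows, 4 of MME, 7 of MEF2C, 2 of BCL6 and 1 each of TCL1A, GCSAM, SERPINA9 and MEF2B. No match says only that these letters are not in these windows.

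LMO2, a LIM-domain adaptor of transcription complexes, was the member that rose. At 204249_s_at the scrambled siRNA arrays of batches 1, 2 and 3 read 7.12, 7.00 and 7.24, and the LEF1 siRNA arrays 7.87, 7.54 and 7.61. The groups did not overlap, and the differences in batches 1, 2 and 3 were 0.75, 0.54 and 0.37. The level went from 7.12 ± 0.12 to 7.68 ± 0.17, a 1.47-fold rise (limma adjusted p = 0.000450 with batch as block, 0.149 without). With scrambled siRNA this probe set read only slightly above the median of 6.91, and differences near background are compressed. The other LMO2 probe set, 231049_at, read 6.30, 6.57 and 6.40 against 6.36, 6.45 and 6.31, below that median, and differed by -0.05 (limma adjusted p = 0.798 with batch as block).

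MYBL1, which encodes A-MYB, a MYB-family factor of dividing germinal-centre B cells, did not pass at any of 3 probe sets. The brightest, 213906_at, read 9.10, 9.27 and 9.11 with scrambled siRNA and 8.97, 8.93 and 9.18 with LEF1 siRNA. The groups overlapped, and the batches went both ways, by -0.13, -0.35 and 0.07 (limma adjusted p = 0.384 with batch as block). Its 95% interval with batch as block, -0.29 to 0.02, included the fall of 0.23 seen at BCL6 215990_s_at. Without batch 3 it fell by 0.24 (limma adjusted p = 0.0409 with batch as block), and with all batches it did not pass. The probe sets 231268_at and 237014_at differed by -0.10 and 0.02, and the second read 6.84 with scrambled siRNA, below the median of all probe sets.

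GCSAM, an adaptor that limits the motility of germinal-centre B cells, and SERPINA9, a serine protease inhibitor also called centerin, each have 1 probe set. GCSAM read 10.22, 9.96 and 9.87 against 10.15, 9.80 and 9.82, and batch 1 was the highest in both groups. Its difference of -0.10 had a 95% interval from -0.22 to 0.03 with batch as block (limma adjusted p = 0.453). SERPINA9 read 7.73, 7.78 and 7.67 against 7.83, 7.85 and 7.72, higher in each batch by 0.10, 0.07 and 0.05. That difference of 0.07, with an interval from -0.05 to 0.19, did not pass (limma adjusted p = 0.599 with batch as block). The groups overlapped for both genes. A p above the threshold does not show that they were unchanged.

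**Figure D2:**
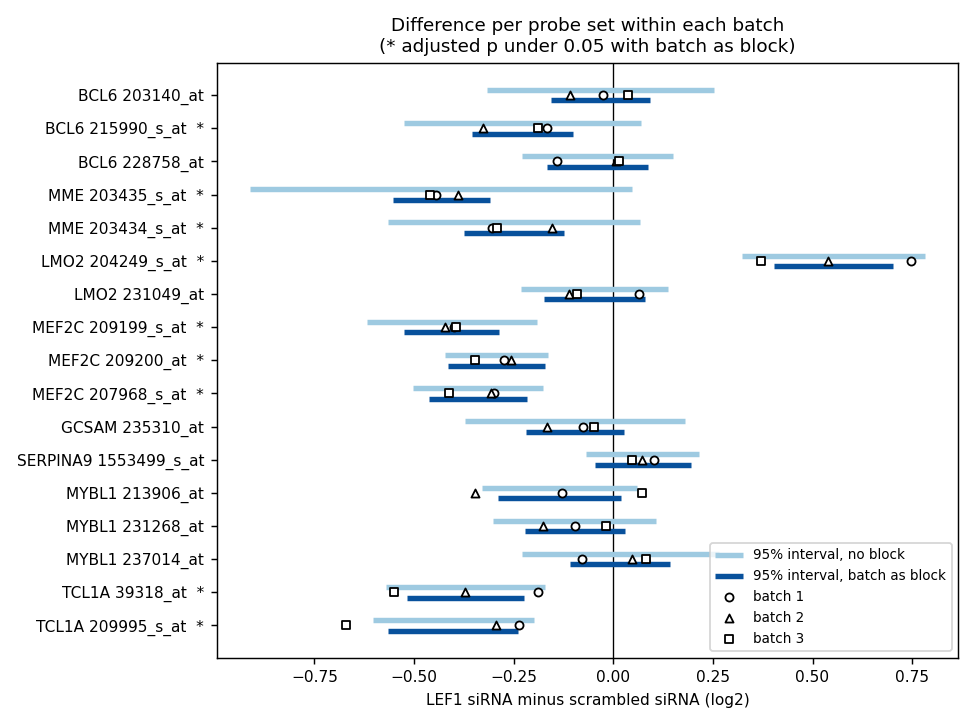
LEF1 siRNA minus scrambled siRNA (log2, x axis) for each of the 17 probe sets (y axis). Open symbols are the 3 batches, light bars the 95% interval without block and dark bars that with batch as block, and a star marks an adjusted p below 0.05 with batch as block. MME 203435_s_at has the widest light bar, from -0.91 to 0.05, against -0.55 to -0.31 for its dark bar.

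Over the 17 probe sets, 10 were lower and 2 higher in all 3 batches and 5 went both ways. Among all probe sets 14.4% were lower and 22.1% higher in all 3 batches. The groups did not overlap at 5 lower probe sets, 3 of MEF2C and 2 of TCL1A, and at 1 higher one, of LMO2, against 4.59% and 7.88% of all probe sets.

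Scaling of the arrays moved the sizes but not the direction of any called member. Quantile normalization and equal array medians each called the same number, 8 lower and 1 higher with batch as block. Scaling to 24 probe sets of the poly-A spike-in controls put the median over all probe sets at -0.11, and then 11 members fell and 1 rose with batch as block, against 14.3% and 1.78% of all probe sets. The added ones were GCSAM and 2 probe sets of MYBL1, at -0.22, -0.25 and -0.22 (limma adjusted p = 0.0279, 0.0200 and 0.0286), which hold that shift. SERPINA9 turned to -0.05 there. LMO2 stayed higher under all 4 scalings, by 0.43 to 0.55.

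**Figure D3:**
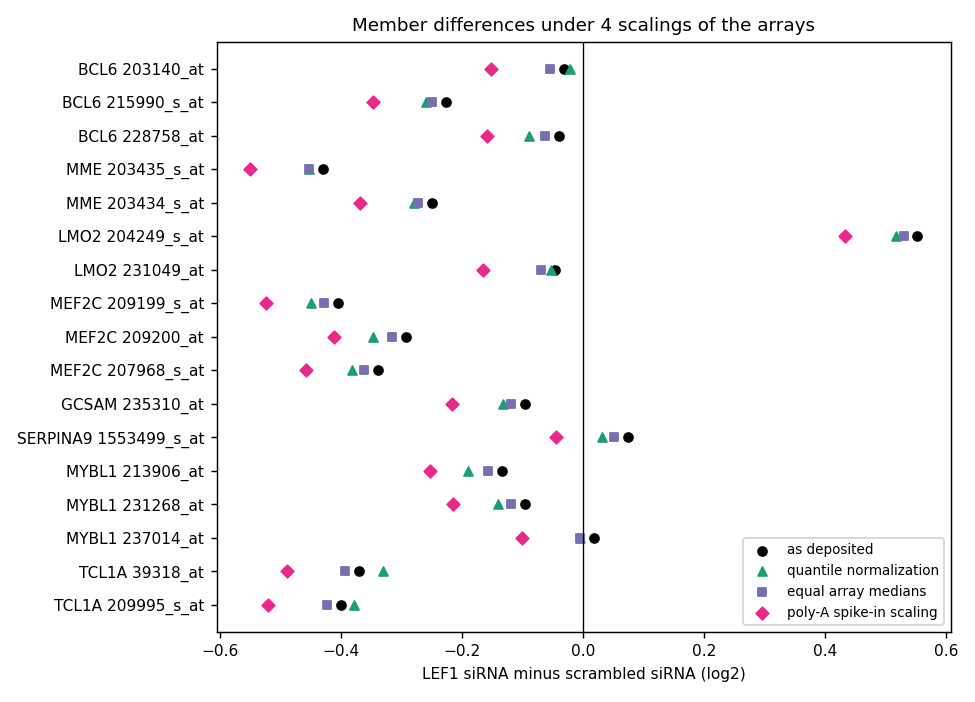
Difference per probe set (log2, x axis) with the arrays as deposited (black circles), after quantile normalization (green triangles), with equal array medians (violet squares) and scaled to the poly-A spike-ins (pink diamonds). The pink diamonds lie to the left of the black circles for every probe set, and LMO2 204249_s_at stays at 0.43 or above.

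Genes around the members were read from lists by the brightest probe set of each gene, and none of these listed genes passed without block in limma, against 0.0253% of all genes. With batch as block 6.73% of all 19775 genes were higher and 1.70% lower on this measure, and without block 9.89% had an unadjusted p below 0.05. Of 29 measured genes of the germinal-centre and Burkitt list, 5 rose and 2 fell with batch as block, and 5 had an unadjusted p below 0.05 without it. CCND3, the cyclin of dividing germinal-centre B cells, fell by 0.47, as known from earlier results, and the transcription factor gene BACH2 fell by 0.24. VNN2 rose by 0.35, KLHL6 by 0.28, the octamer factor gene POU2F2 by 0.27 and STAP1 by 0.22. With batch as block, the KLHL6 call was lost after quantile normalization and with poly-A spike-in scaling (limma adjusted p = 0.0803 and 0.123), that of STAP1 with equal medians and poly-A spike-in scaling (0.0786 and 0.244), and that of POU2F2 with poly-A spike-in scaling (0.106). The median difference of this list was -0.03, and that of all genes 0.02. Quantile normalization turned the counts to 3 higher and 4 lower, and poly-A spike-in scaling to 1 higher and 14 lower. The calls over all probe sets moved in the same direction. They were 2501 higher and 827 lower as deposited, 1861 and 1454 after quantile normalization, and 971 and 7826 with poly-A spike-in scaling. Leaving out batch 2 lowered the count of this list from 7 to 2.

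BCL6 acts with co-repressors, and 0 of 14 measured ones passed in limma with batch as block. Of these 14, 2 had an unadjusted p below 0.05 there, against 21.1% of all genes, and 0 had one without block. The 2 with the smallest p were BCOR at 0.16 and TBL1XR1 at 0.13 (limma adjusted p = 0.166 and 0.285 with batch as block). Of 23 measured genes described as repressed by BCL6, 12 rose and 0 fell with batch as block, and 6 had an unadjusted p below 0.05 without it. Of these 23, NOTCH2, CASP8 and ID2 were known as higher from earlier results, and without them 9 of 20 rose. ZFP36L1, an mRNA decay factor, rose by 0.80, the co-stimulatory ligand gene CD86 by 0.55, NOTCH2 by 0.42, CASP8 by 0.36, the follicle-exit receptor gene GPR183 by 0.36 and the checkpoint kinase gene ATR by 0.28. GPR183 read only 6.23 with scrambled siRNA, below the median of all probe sets. PRDM1 and IRF4, which direct plasma cell formation, differed by 0.05 and 0.07 (limma adjusted p = 0.833 and 0.823 with batch as block). Their batches went both ways. In batches 1, 2 and 3 PRDM1 differed by -0.02, 0.26 and -0.10, and IRF4 by 0.51, 0.01 and -0.30.

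The count for the BCL6-repressed list depended on the setting. It was 9 after quantile normalization and 7 with equal medians, all higher. Under poly-A spike-in scaling 5 rose and 1 fell, against 1.78% and 14.3% of all probe sets, and ATR did not pass (limma adjusted p = 0.0837). Leaving out batch 2 gave 6 and leaving out batch 1 gave 7. The list's median difference was 0.22 as deposited and 0.10 with poly-A spike-in scaling. Several of these genes, such as CD80 and CD86, are also activation genes of B cells. BCL6 itself fell at 1 of its 3 probe sets, not the brightest. That call was lost without batch 2 (limma adjusted p = 0.269 with batch as block). The part of activation or of BCL6 in the rises of this list was not tested.

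Among 20 relatives and partners of MEF2, LMO2, MYB and TCL1, 3 rose and 1 fell with batch as block, and 5 had an unadjusted p below 0.05 without it. HDAC9, a deacetylase that binds MEF2 factors, rose from 9.40 ± 0.27 to 9.96 ± 0.04, by 0.57, with no overlap of the groups. TCF12, an E protein that joins LMO2 complexes in blood cells, rose by 0.40, and LYL1, another such partner, by 0.21, a call lost with each of the 3 rescaled data sets (smallest limma adjusted p = 0.0810, with equal medians). MYBL2, which encodes B-MYB, fell by 0.33. The family members MEF2A and MEF2D differed by 0.11 and -0.09 and did not pass. Poly-A spike-in scaling gave 2 higher and 5 lower, against 1.78% and 14.3% of all probe sets.

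Of 19 measured markers of activated or post-germinal-centre B cells, 4 rose and 0 fell with batch as block, and 3 had an unadjusted p below 0.05 without it. They were CCR7, already known as higher, by 1.13, FOXP1 by 0.38, SH3BP5 by 0.31 and ENTPD1 by 0.25. ENTPD1 did not pass in any of the 3 rescaled data sets (smallest limma adjusted p = 0.0528, with equal medians), and SH3BP5 not under poly-A spike-in scaling (0.0522). Under that scaling 2 rose and 1 fell, against 1.78% and 14.3% of all probe sets. Leaving out batch 3 raised the count from 4 to 6.

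**Figure D4:**
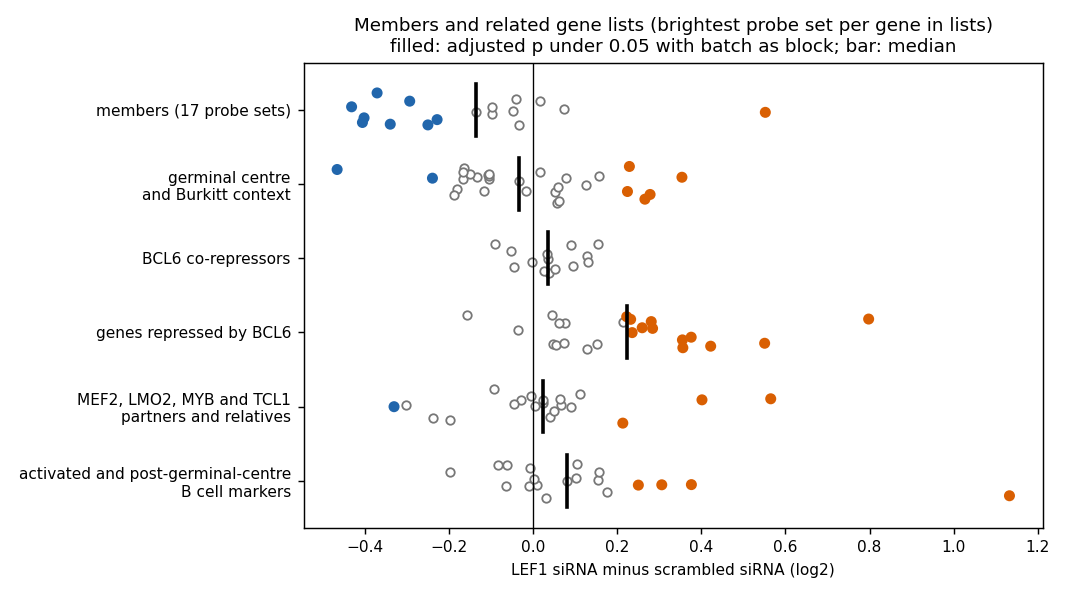
Difference (log2, x axis) of the 17 member probe sets and of each gene of 5 related lists (y axis rows; vertical scatter within a row has no meaning), with black bars at the medians. Filled points have an adjusted p below 0.05 with batch as block, orange if higher and blue if lower. The members hold 8 blue points and 1 orange point, and the genes repressed by BCL6 hold 12 orange points and no blue one.

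Patterns over the 6 arrays were compared by the root-mean-square difference after centring each gene on its own mean. The closest genes, among brightest probe sets above the median level, were found for each member whose brightest probe set was called. For MME these were CDC45 and PPIH, at 0.0882 and 0.0979, where MME itself had a root-mean-square deviation of 0.359. For LMO2, with a deviation of 0.302, they were IFIH1 and TSPYL1, at 0.0515 and 0.0534. For MEF2C, with 0.231, they were ASNS and FBP1, at 0.0417 and 0.0484. For TCL1A, with 0.211, they were ZAP70 and PITPNM2, at 0.0613 and 0.0637. These were picked as the closest of all genes over only 6 arrays.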

How the data were processed

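Per the labels' protocols, total RNA was turned into biotinylated cRNA with the 3' IVT Express kit, so arrays read mainly 3' ends. The deposited values were log2 expression per probe set of the HG-U133 Plus 2.0 array, with the log2 scale read from their range of 5.45 to 15.0. Background correction, normalization and summarisation are not given in the sources used here. Precision is limited by there being only 3 arrays per group.

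Of 54675 probe sets, 62 controls were left out. Gene names came from the platform annotation (41091 of 54613 probe sets with 1 gene, 1801 with several, 11721 unnamed here). Listed genes unnamed here were not analysed. Each probe set was fitted by limma 3.58.1 (lmFit, eBayes; R 4.3.3; R package data.table, release 1.17.8), two-sided, with Benjamini-Hochberg adjustment over 54613 probe sets. The labels' batch pairs 1 array of each group, and deviations from group means correlated at 0.477, 0.493 and 0.621 within batches. The fit without block had 4 residual and 4.07 prior degrees of freedom, that with batch as block 2 and 12.0. Both were also run on simulated data with known changes, the outcome of which is not given here. Replicates are biological, per the design text.

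The members and lists were chosen with earlier results of these data known. Named were LEF1, all members, and up to 6 genes per list by smallest p with batch as block (up to 2 where none passed). For members whose brightest probe set passed, the 2 genes closest in pattern were named too. Figures used matplotlib 3.10.9 in Python 3.11.15.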

Additional observations from a re-analysis of the deposited data

How the results depend on the processing

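Without block, 0 member probe sets passed under each alternative (of 17, or of the 15 kept when dim probe sets were left out), and all-probe-set calls were 10, 23 after quantile normalization, 15 with poly-A spike-in scaling and 6 with a trended, robust prior. The post-germinal-centre list gained 1 call with poly-A spike-in scaling without block. With batch as replicate block, 3328 probe sets, 9 members, and 7 germinal-centre, 12 BCL6-repressed, 4 partner and 4 post-germinal-centre genes passed. With that block the same counts, in this order, were 3315, 9, 7, 9, 5 and 3 after quantile normalization, 2785, 9, 5, 7, 4 and 3 with equal medians, 8797, 12, 15, 6, 7 and 3 with poly-A spike-in scaling, 3465, 9, 7, 11, 5 and 4 without dim probe sets, and 2938, 8, 4, 9, 4 and 4 with a trended, robust prior. Co-repressor calls were 0 except 1 with poly-A spike-in scaling and block.

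Leaving out single arrays without block gave 0 to 8 calls over all probe sets and 0 for members and every list. Leaving out 1 batch with the replicate block gave 1407 (batch 2), 3880 (batch 1) and 3626 (batch 3) probe sets, 8 to 9 members, 2 to 8 germinal-centre, 6 to 12 BCL6-repressed, 3 to 5 partner, 3 to 6 post-germinal-centre and 0 co-repressor genes. Signs turned only among members not called in either fit. MYBL1 237014_at went to -0.0054 after quantile normalization or equal medians and to -0.10 with poly-A spike-in scaling, where SERPINA9 went to -0.046. Leaving out single arrays without block gave ranges of -0.16 to 0.062 for BCL6 203140_at, -0.11 to 0.011 for BCL6 228758_at, -0.21 to 0.0057 for GCSAM, -0.11 to 0.025 for LMO2 231049_at and -0.091 to 0.093 for MYBL1 237014_at. Leaving out 1 batch with the replicate block gave -0.066 to 0.0056, -0.067 to 0.010 and -0.015 to 0.065 for BCL6 203140_at, BCL6 228758_at and MYBL1 237014_at. The cause of these changes was not tested. With 3 arrays per group, small changes of dim probe sets could be missed.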
